A study of Mus musculus with 10 samples.

Results

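The tricarboxylic acid cycle was followed through 9 of its enzyme genes in mouse gastrocnemius, the large calf muscle. The members were Cs, Idh2, Idh3a, Idh3b, Ogdh, Dlst, Suclg1, Fh1 and Mdh2, taken as the probe sets whose single gene symbol is one of these names. Each of the 9 had exactly 1 such probe set, among 19938 genes with a named probe set. All 9 also passed a filter on low signals, which kept 11963 genes. The study asked whether exercise of ancestors left a trace in the muscle transcriptome of their descendants. All animals were C57BL/6 males, and every array carried RNA pooled from 5 of them, so the spread between single animals is not visible. F0 EX animals had voluntary exercise, F0 SED animals had a sedentary life, and their muscle was taken at 28 weeks of age. They were mated with partners of like exposure, and F1 EX and F1 SED name the sedentary offspring of each kind of couple, taken at 8 weeks. F1 littermates were bred to give F2 EX and F2 SED, which were also sedentary and taken at 8 weeks. Each F0 group had a single pool and each of the 4 descendant groups had 2, which made 10 arrays. F0 therefore differed from its descendants in age, in exposure and in the number of arrays, which cannot be told apart.

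The cycle runs in the mitochondrial matrix, where it oxidises acetyl groups from sugar, fat and amino acids to carbon dioxide and hands the electrons to the respiratory chain. Citrate synthase, made by Cs, joins acetyl-CoA to oxaloacetate, and its activity is a customary measure of the mitochondrial content of muscle, which endurance training is known to raise. In skeletal muscle the flux through the cycle climbs steeply with contraction, and calcium and ADP activate the NAD-dependent isocitrate dehydrogenase and the 2-oxoglutarate dehydrogenase complex.

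The promoters of 5 members are shown because these genes differ in which arrays their signals were low: Idh3b, Suclg1 and Cs were low in 2 arrays, and Dlst and Fh1 in 1 of them. The windows run from 250 bases before to 50 bases after a RefSeq transcript start on GRCm38.p6, so that base 251 is the start, and are written 5′ to 3′ on the strand of the gene. RefSeq windows were matched for 8 of the 9 members. They lie at chr10:128337477-128337776 (plus strand) for Cs, chr2:130284402-130284701 (minus strand) for Idh3b, chr6:73248255-73248554 (plus strand) for Suclg1, chr12:85110583-85110882 (plus strand) for Dlst and chr1:175625586-175625885 (minus strand) for Fh1. Capitals mark CCAAT boxes and the ETS core CCGGAAGT, on either strand.
Cs: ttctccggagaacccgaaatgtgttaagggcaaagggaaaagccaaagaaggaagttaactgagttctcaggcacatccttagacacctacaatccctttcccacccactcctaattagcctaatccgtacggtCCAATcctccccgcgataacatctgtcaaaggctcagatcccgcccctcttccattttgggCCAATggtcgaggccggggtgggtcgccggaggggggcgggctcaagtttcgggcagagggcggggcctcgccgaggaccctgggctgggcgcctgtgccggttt
Idh3b: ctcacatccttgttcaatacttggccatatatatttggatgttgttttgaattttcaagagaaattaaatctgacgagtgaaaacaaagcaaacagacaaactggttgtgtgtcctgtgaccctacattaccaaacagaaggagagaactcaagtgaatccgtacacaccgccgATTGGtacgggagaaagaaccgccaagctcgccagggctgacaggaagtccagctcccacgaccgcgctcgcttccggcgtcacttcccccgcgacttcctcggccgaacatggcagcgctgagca
Suclg1: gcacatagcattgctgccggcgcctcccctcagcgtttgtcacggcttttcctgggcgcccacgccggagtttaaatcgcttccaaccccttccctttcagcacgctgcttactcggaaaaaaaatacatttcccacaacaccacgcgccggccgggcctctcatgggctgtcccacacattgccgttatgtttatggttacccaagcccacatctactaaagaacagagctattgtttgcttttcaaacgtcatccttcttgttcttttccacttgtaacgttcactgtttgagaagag
Dlst: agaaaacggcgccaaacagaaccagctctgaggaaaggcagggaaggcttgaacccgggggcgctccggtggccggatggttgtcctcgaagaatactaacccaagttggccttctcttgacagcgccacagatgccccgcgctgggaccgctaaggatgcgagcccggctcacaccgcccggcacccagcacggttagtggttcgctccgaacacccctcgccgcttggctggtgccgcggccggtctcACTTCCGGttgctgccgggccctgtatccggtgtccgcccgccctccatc
Fh1: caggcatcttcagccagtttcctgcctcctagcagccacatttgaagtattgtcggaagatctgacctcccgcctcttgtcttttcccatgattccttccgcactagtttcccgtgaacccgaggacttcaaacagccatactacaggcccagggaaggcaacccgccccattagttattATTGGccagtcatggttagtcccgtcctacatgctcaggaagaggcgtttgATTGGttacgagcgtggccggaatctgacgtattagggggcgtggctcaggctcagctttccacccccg

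CCAAT, a box read by the factor NF-Y, stood at bases 135 to 139 and 196 to 200 of the Cs window. On the other strand, as ATTGG, it stood at bases 175 to 179 for Idh3b, and at 181 to 185 and 232 to 236 for Fh1. In all, 5 of the 8 member genes held it in a window (Cs, Idh2, Idh3b, Ogdh and Fh1), against 41.9% of the 9571 tested genes that have windows. The ETS core CCGGAAGT, bound by GABP, a regulator of mitochondrial genes, was found in Dlst alone among the 8, at bases 251 to 258 on the other strand, against 8.42% of tested genes. The NRF1 core CGCATGCG was found in Ogdh alone, against 4.12% of tested genes. It was 1 site, seen in 2 overlapping windows of the 6 that Ogdh has, where the other members with a window have 1 each. GGGCGG, an Sp1 box, lay in 6 of the 8, against 68.3%. The extended response element TNAAGGTCA of the estrogen-related receptors was in none of the 8 and in 0.94% of tested genes. Its shorter core AGGTCA, which the extended site contains, lay in Fh1 and Ogdh, against 15.2%. Both strands were searched throughout. Suclg1 held none of these letters in its window, and Mdh2 held GGGCGG alone. The matches describe these windows and were not tied to the signals by any test.

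Signals are given on the log2 scale of the deposited table, where a difference of 1 is a factor of 2. Levels of different genes are not compared, since each probe set has its own response. A pair of arrays stood apart from the others before any gene was considered. The lower quartile over all 35557 probe sets was 2.48 in both F0 SED and F1 EX pool 1 and 2.28 to 2.32 in the other 8 arrays. The upper quartile was 5.53 in F0 SED and 5.57 to 5.64 in all other arrays. Across the genes tested, the median Pearson r with the other arrays was 0.974 for F0 SED, 0.979 for F1 EX pool 1 and 0.986 to 0.993 for the rest. All 15 muscle fibre markers passed the filter. Their summed linear signal was 74619.7 in F0 SED, 80724 in F1 EX pool 1, 89268 in F0 EX and 89937 to 94056 in the other descendant arrays. The 5 keratinocyte markers, of which 3 passed the filter, summed to 170 in F0 SED, 87.9 in F0 EX and 45.2 to 61.3 in descendants. The 6 fibroblast and tenocyte markers summed to 2891 in F0 SED, 3614 in F0 EX and 6629 to 8353 in descendants. The 8 slow fibre markers summed to 3208 in F0 SED, 4504 in F0 EX and 3477 to 4542 in descendants. The part of these differences in the results on the cycle was not tested. In pooled tissue RNA, fewer cells of a type and less RNA per cell cannot be told apart.

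Cs showed the commonest pattern among the members. Its signal was 10.93 in F0 EX and 10.38 in F0 SED, 10.60 and 10.82 in the F1 EX pools, 10.97 and 10.86 in F1 SED, 10.92 and 11.01 in F2 EX, and 10.92 and 11.04 in F2 SED. F0 SED was the lowest array and F1 EX pool 1 the next, while F0 EX lay inside the range of the 8 descendant arrays. The F0 EX pool was 0.55 above the F0 SED pool, a ratio of 1.46.

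The isocitrate dehydrogenases fell into different patterns. Idh3a makes the catalytic subunit of the NAD-dependent enzyme, which forms 2-oxoglutarate and NADH. Its signal was 11.29 in F0 EX and 10.48 in F0 SED, 10.66 and 11.27 in the F1 EX pools, 11.30 and 11.18 in F1 SED, 11.35 and 11.32 in F2 EX, and 11.32 and 11.21 in F2 SED. Both low arrays lay far under the other 8, which spanned 11.18 to 11.35, and the F0 difference of 0.81 (ratio 1.75) was the widest of the 9. Idh3b makes a regulatory subunit of the same enzyme and gave 11.53 in F0 EX and 10.86 in F0 SED, 10.87 and 11.46 in the F1 EX pools, 11.60 and 11.42 in F1 SED, 11.55 and 11.51 in F2 EX, and 11.52 and 11.60 in F2 SED. F0 SED and F1 EX pool 1 were level with each other, and the other 8 arrays lay between 11.42 and 11.60, so that the F0 difference was 0.67 (ratio 1.59).

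Idh2 makes the NADP-dependent mitochondrial enzyme, which supplies NADPH and is a separate protein from the Idh3 complex. It gave 9.95 in F0 EX and 9.53 in F0 SED, 9.54 and 9.38 in the F1 EX pools, 9.59 and 9.53 in F1 SED, 9.69 and 9.59 in F2 EX, and 9.56 and 9.53 in F2 SED. Here F0 EX was the highest array, above every descendant (9.38 to 9.69), and F0 SED lay inside the range of the descendants. In the deposited values its F0 difference of 0.42 (ratio 1.33) thus came with a high F0 EX, where the other 8 members had a low F0 SED. With quantile normalization F0 SED (9.73) was also above every descendant (9.38 to 9.64), and the Idh2 difference was 0.14.

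Ogdh and Dlst make the first and the second component of the 2-oxoglutarate dehydrogenase complex, which yields succinyl-CoA. Ogdh gave 11.26 in F0 EX and 10.60 in F0 SED, 10.98 and 11.21 in the F1 EX pools, 11.30 and 11.24 in F1 SED, 11.26 and 11.26 in F2 EX, and 11.23 and 11.23 in F2 SED. F0 SED was lowest by 0.38, F1 EX pool 1 came next, and the other 8 arrays lay within 11.21 to 11.30, with an F0 difference of 0.66 (ratio 1.58). Dlst, the lipoate-bearing succinyltransferase, gave 8.85 in F0 EX and 8.36 in F0 SED, 9.07 and 8.90 in the F1 EX pools, 8.94 and 8.77 in F1 SED, 8.98 and 8.95 in F2 EX, and 9.004 and 8.81 in F2 SED. F0 SED was again lowest, by 0.41, but F1 EX pool 1 was the highest of the 10 arrays, and the F0 difference was 0.49 (ratio 1.40).

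Suclg1 makes the alpha subunit of succinate-CoA ligase, which forms a nucleoside triphosphate directly. Its signal was 9.30 in F0 EX and 8.90 in F0 SED, 8.94 and 9.33 in the F1 EX pools, 9.47 and 9.35 in F1 SED, 9.52 and 9.45 in F2 EX, and 9.42 and 9.35 in F2 SED. F0 SED and F1 EX pool 1 were both low, and the other 8 arrays spanned 9.30 to 9.52, with an F0 difference of 0.40 (ratio 1.32). Fh1, fumarase, hydrates fumarate to malate and gave 9.95 in F0 EX and 9.52 in F0 SED, 9.96 and 9.94 in the F1 EX pools, 9.98 and 9.88 in F1 SED, 10.01 and 9.97 in F2 EX, and 9.98 and 9.89 in F2 SED. Its F0 SED value lay 0.37 under the lowest descendant, F1 EX pool 1 was in the middle, and the F0 difference was 0.44 (ratio 1.36). Mdh2, mitochondrial malate dehydrogenase, closes the cycle by forming oxaloacetate. It gave 11.47 in F0 EX and 11.25 in F0 SED, 11.29 and 11.39 in the F1 EX pools, 11.60 and 11.44 in F1 SED, 11.47 and 11.54 in F2 EX, and 11.46 and 11.53 in F2 SED, with F0 SED and F1 EX pool 1 lowest by a small margin and the narrowest F0 difference, 0.22 (ratio 1.16).

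**Figure D1:**
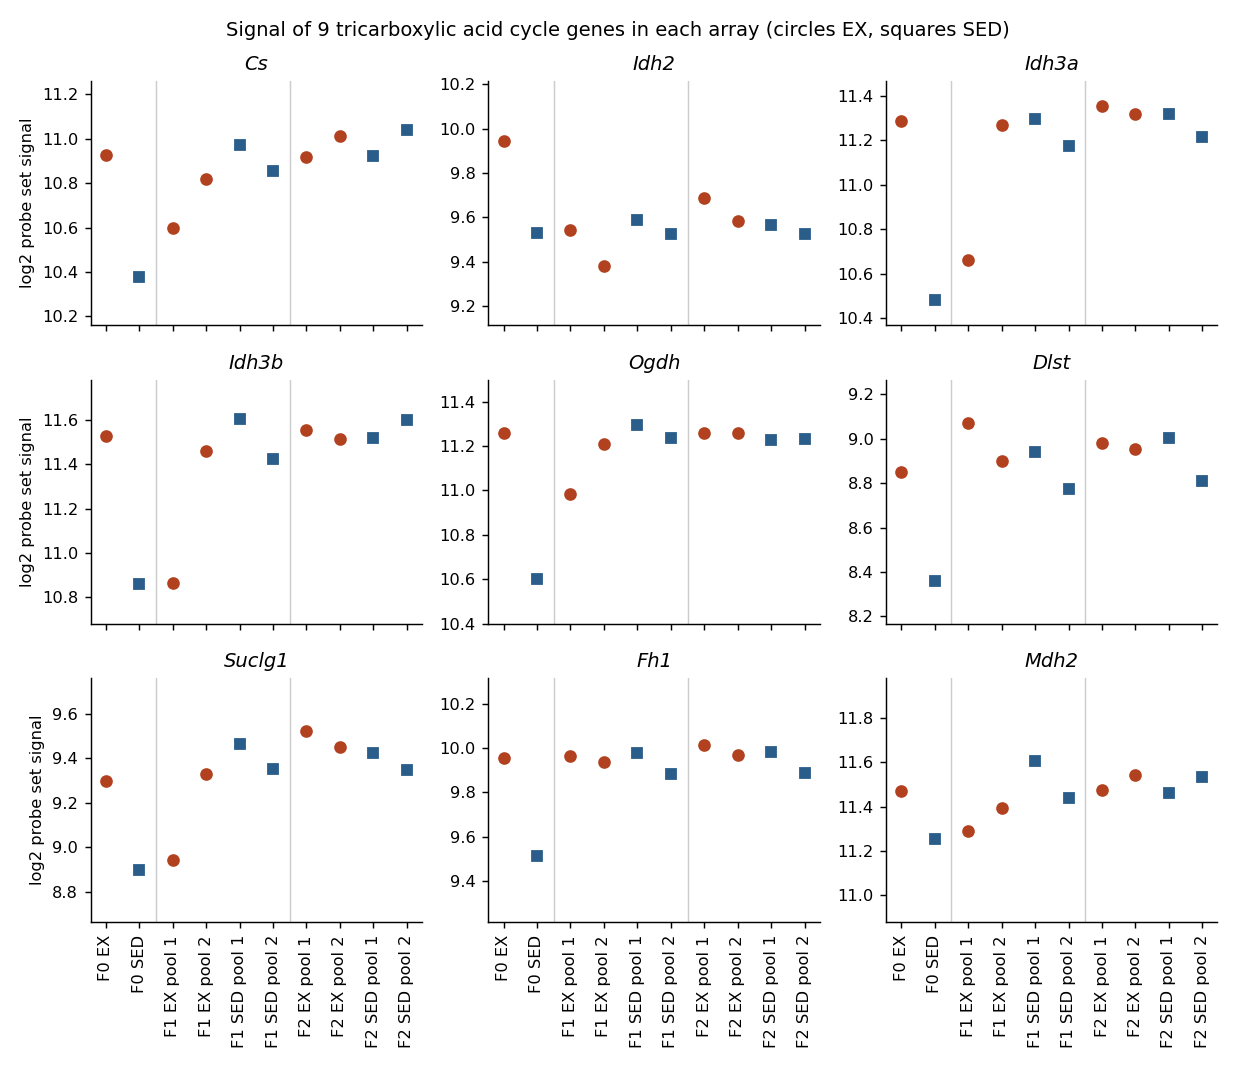
Each panel plots the log2 probe set signal of 1 gene (vertical axis, the same span in every panel) in the 10 arrays (horizontal axis), with circles for EX and squares for SED, 1 point an array, and grey lines between generations. In these deposited values F0 SED is the lowest point in 8 of 9 panels (Idh2 excepted), and F1 EX pool 1 is the next lowest in Cs, Idh3a, Idh3b, Ogdh, Suclg1 and Mdh2.

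The first comparison concerned the exercised and the sedentary F0 animals themselves, with 1 pool each and hence no test and no replicate check. All 9 members were higher in F0 EX in the deposited values, from 0.22 (Mdh2, which turned to -0.098 with quantile normalization) to 0.81 (Idh3a). Their median was 0.49, where the median over the 11963 genes was 0.075 and 58.0% of them were higher in F0 EX. Of the 9, 4 (Cs, Idh3a, Idh3b and Ogdh) were higher by at least 0.5, against a background of 15.3% of genes. Genes of like signal were nearer to the members. Among the 605 genes whose mean lay in the members' range (8.86 to 11.45), the median difference was 0.33, 77.9% were higher in F0 EX and 32.9% were higher by at least 0.5. The count of 4 of 9 is close to that share.

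Of the 2 pools, F0 SED was the one outside the range of the other arrays. It was the lowest of the 10 arrays in 8 of 9 members, against 27.2% of all genes and 51.7% of genes in the members' range. F0 EX lay inside the descendants' range in 8 of 9, with Idh2 above it. The size also moved with the scaling. With each array centred on its median over all probe sets the members' median was 0.64 and 8 of 9 reached 0.5, while the median of all genes was 0.22. Centred on the median of the genes tested, the members' median was 0.37, 3 members (Idh3a, Idh3b and Ogdh) reached 0.5, and the median of all genes was -0.043. Quantile normalization gave a median of 0.25, only Idh3a (0.56) reached 0.5, and the other 8 ran down to Mdh2. Under that scaling, and with centring on the genes tested, F0 SED was lowest in 5 of 9 members. The shares of genes given above are for the deposited values, and none was counted under these scalings.

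**Figure D2:**
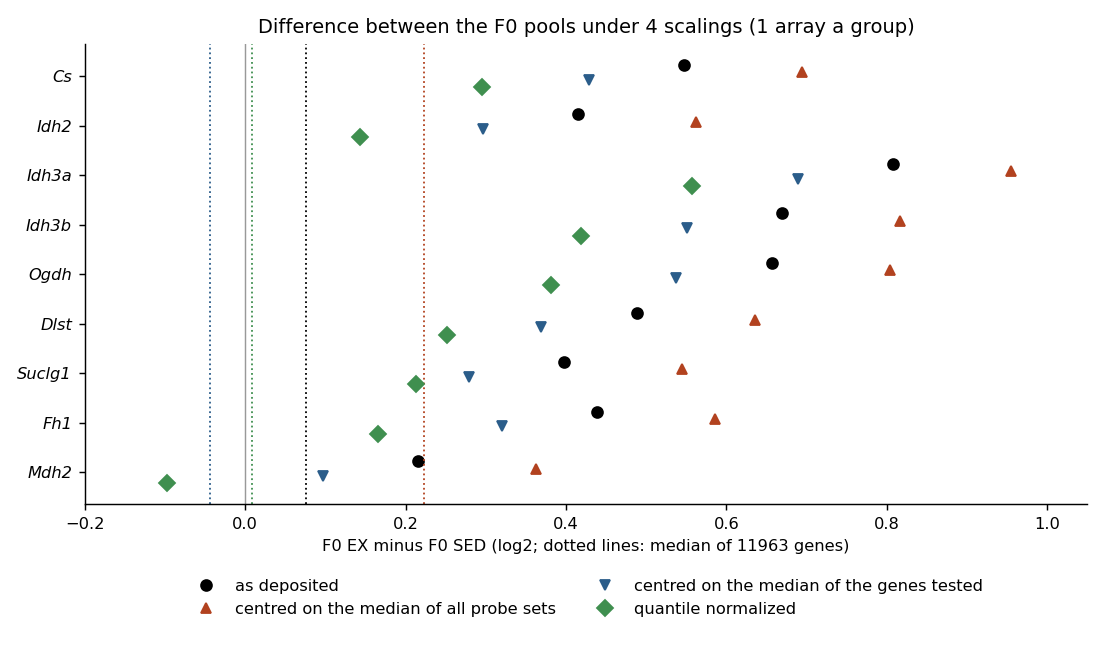
The horizontal axis gives the F0 EX minus F0 SED difference on the log2 scale for each of the 9 genes (rows), with 1 array a group and 1 symbol for each of 4 scalings. Dotted lines in the same colours mark the median of all genes tested. Idh3a stays furthest right under every scaling plotted, and Mdh2 lies below 0 with quantile normalization.

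Around the cycle, the other enzymes differed between the F0 pools less evenly. Of 8 further cycle genes with a named probe set, 6 were higher in F0 EX and 3 by at least 0.5, with a median of 0.43. Dld, the component shared by the 2-oxo acid dehydrogenases, was 9.495 in F0 EX and 8.27 in F0 SED (difference 1.22), and its descendants ran from 8.89 to 9.56. Idh3g, the partner subunit of Idh3a and Idh3b, differed by 0.58. Succinate dehydrogenase was split: Sdha, the flavoprotein, differed by 0.66 and Sdhd, a membrane anchor, by 0.43, while the iron-sulfur subunit Sdhb (-0.049) and the anchor Sdhc (-0.071) were close to 0. Genes of pyruvate entry had a median of 0.61 over 12 genes, 7 of them higher by at least 0.5 and 1 lower. Pdk4, which phosphorylates and so restrains pyruvate dehydrogenase, was 10.67 in F0 EX, 9.65 in F0 SED and 10.54 to 11.04 in descendants, so that here too F0 SED was the array out of range. Pdp1, a phosphatase that reactivates that enzyme, was 1.03 higher and Pdp2 0.71 lower. Pdp2 had low signals (3.84 in F0 EX and 4.54 in F0 SED, with the filter at 3.23), and low signals ran higher in F0 SED over all probe sets.

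The medians of the further lists were lower than that of pyruvate entry. Genes of anaplerosis, which refill the cycle, had a median of 0.41 with 13 of 14 higher in F0 EX, led by the malic enzyme Me2 (0.87). The 26 respiratory chain genes had a median of 0.31, with 21 higher and 5 of them by at least 0.5. Cytosolic counterparts of cycle enzymes had a median of 0.19 over 6 genes, among which Idh1 differed by 0.75. Mitochondrial carriers of cycle acids had 0.15 over 4 genes, and lipoate synthesis genes, which supply the cofactor of Dlst, 0.20 over 5, with 2 higher and 2 lower by the bound. The 12 regulators had a median of 0.051. Ppargc1a, a coactivator of mitochondrial genes, was 7.13 in F0 EX, 6.36 in F0 SED and 6.52 to 7.002 in descendants. Esrra, a nuclear receptor that Ppargc1a works with, was 6.98 in F0 EX and 7.08 in F0 SED.

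In F1, offspring of exercised and of sedentary couples were compared with 2 pools a group. No member and no other gene passed an adjusted p of 0.05 in limma with Benjamini-Hochberg adjustment (0 of 11963, 0%, with 584 genes and none of the members at an unadjusted p under 0.05). The members' estimates were below 0 in 7 of 9, with a median of -0.18 beside -0.0044 over all genes, of which 48.9% were above 0. Adipocyte markers differed in the same comparison. Of 7 listed, 5 passed the filter and all 5 had estimates below 0, with a median of -0.78 and none called. The linear signals of the 6 with a named probe set summed to 224 to 287 in the F1 EX pools and 383 to 447 in F1 SED, and their part in the members' estimates was not tested. Idh3b had -0.35 (SE 0.18, 95% confidence interval -0.76 to 0.058) and an adjusted p of 0.804 in limma, and Suclg1 -0.27 (SE 0.15, 95% confidence interval -0.60 to 0.06). Idh3a gave -0.27, Cs -0.20, Mdh2 -0.18, Ogdh -0.17 and Idh2 -0.094. Dlst (0.13) and Fh1 (0.019) were above 0. In 4 members (Cs, Ogdh, Suclg1 and Mdh2) both F1 EX pools lay under both F1 SED pools, against 16.6% of genes, and in no member did both lie above, against 13% of genes. The estimates leaned on 1 array. Without F1 EX pool 1 the members' median was -0.060 and Idh3a turned to 0.035. Without F1 EX pool 2, which leaves F1 EX pool 1 alone and assumed to vary like the other groups, it was -0.28, and 1046 genes passed, Idh3a (-0.57) and Idh3b (-0.65) among them, with limma adjusted p of 0.0332 and 0.0286. Without F1 SED pool 1, 8 genes passed and no member.

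In F2, grandoffspring of exercised and of sedentary couples gave nearly equal signals for the members. None passed the test, and 0 of 11963 genes did (0%, with 532 at an unadjusted p under 0.05). Estimates ran from -0.025 (Idh3b) to 0.10 (Suclg1), with 7 of 9 above 0 and a median of 0.056. Over all genes 60.7% were above 0, with a median of 0.037. Cs gave -0.019 (SE 0.13, 95% confidence interval -0.31 to 0.28), and Idh3a 0.07 (SE 0.18, 95% confidence interval -0.34 to 0.48). Both F2 EX pools lay above both F2 SED pools in 4 members (Idh2, Idh3a, Ogdh and Suclg1), against 25.8% of genes, and in none below, against 14.6%. Ogdh and Suclg1 thus had groups that did not overlap in either generation, in opposite order, and neither passed the test of the difference between generations. The share of all genes with such a joint order was not counted. With centring on the genes tested, the F2 estimate of Ogdh turned to -0.021. The confidence intervals, which are not adjusted for the number of genes, reached 0.26 to 0.41 to either side of the estimates. Differences inside those bounds could not be told from 0 with 2 pools a group. Larger ones could also fail the adjusted threshold, as the 532 genes above did.

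The difference between the ancestry effects of F2 and F1 was tested directly. It passed for no member and no gene (0%, with 519 genes at an unadjusted p under 0.05). Over all genes 56.2% of the estimates were above 0, with a median of 0.037. Among the members 8 of 9 were above 0, with a median of 0.19. Suclg1 was highest at 0.38 (SE 0.21, 95% confidence interval -0.094 to 0.84) with a limma adjusted p of 0.919. Without F1 EX pool 1 the median was 0.075, and without F1 EX pool 2 it was 0.30 and 143 genes passed, with no member among them. Without F1 SED pool 1, 5 genes passed, again without a member. Over F1 and F2 together, 4 EX against 4 SED pools, 0% of genes passed again, with 597 at an unadjusted p under 0.05. The members' median was -0.083, beside 0.010 over all genes. Idh3b was lowest at -0.19 (SE 0.13, 95% confidence interval -0.48 to 0.11) and Dlst highest at 0.095 (SE 0.09, 95% confidence interval -0.10 to 0.30). Idh2 was at -0.0014, with an interval of -0.19 to 0.19.

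The 2 descendant generations were compared at the same age. The estimates of F2 minus F1 were above 0 in all 9 members (Dlst was at -0.013 with quantile normalization), from 0.016 (Dlst) to 0.21 (Idh3b). Over all genes 51.6% were above 0, with a median of 0.0047. No member passed the test and neither did any other gene (0%, with 509 at an unadjusted p under 0.05). Cs had 0.16 (SE 0.093, 95% confidence interval -0.043 to 0.37) and Idh3a 0.20 (SE 0.13, 95% confidence interval -0.097 to 0.50), with limma adjusted p of 0.911 and 0.911. F1 holds 1 of the 2 arrays that stood apart. Leaving out single pools took Dlst to -0.030 and Ogdh to -0.0033.

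F0 animals were then set against all descendants, with ancestry held in the model. In limma 279 of 11963 genes passed (2.33%, 95 higher and 184 lower in F0), and none of the members did. Of the 9, 8 were below 0, with a median of -0.25 beside -0.024 over all genes, of which 45.1% were above 0. Markers of other cells differed in the same comparison. All 5 endothelial markers were below 0 (median -0.46, 2 called lower), and their linear signals summed to 457 in F0 SED, 599 in F0 EX and 701 to 798 in descendants. All 6 fibroblast and tenocyte markers were below 0 (median -0.67, 3 called lower), and all 3 keratinocyte markers past the filter were above 0 (median 1.63, 2 called higher). Their part in the members' estimates was not tested. Dlst came nearest, at -0.33 (SE 0.12, 95% confidence interval -0.59 to -0.063) with a limma adjusted p of 0.186. Idh3a gave -0.32, Ogdh -0.28, Suclg1 -0.26, Idh3b -0.25, Cs -0.24, Fh1 -0.22 and Mdh2 -0.10. Idh2 was the exception at 0.19 (SE 0.12, 95% confidence interval -0.072 to 0.45). The direction depended on F0 SED for Cs, Idh3a, Idh3b, Ogdh and Mdh2. With F0 SED left out, Dlst (-0.13), Suclg1 (-0.015) and Fh1 (-0.017) stayed below 0 and Idh2 (0.40) above it. Without that array, the members' median was 0.081 and 86 genes passed, none of them a member. Without F0 EX, which leaves F0 SED alone and assumed to vary like the other groups, the median was -0.52 and 1231 genes passed. Cs, Idh3a, Ogdh and Dlst were then among them, with limma adjusted p of 0.0358, 0.0443, 0.0208 and 0.0439. Without F1 EX pool 1, 584 genes and no member passed, without F2 EX pool 2, 185, and without F2 SED pool 2, 181.

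**Figure D3:**
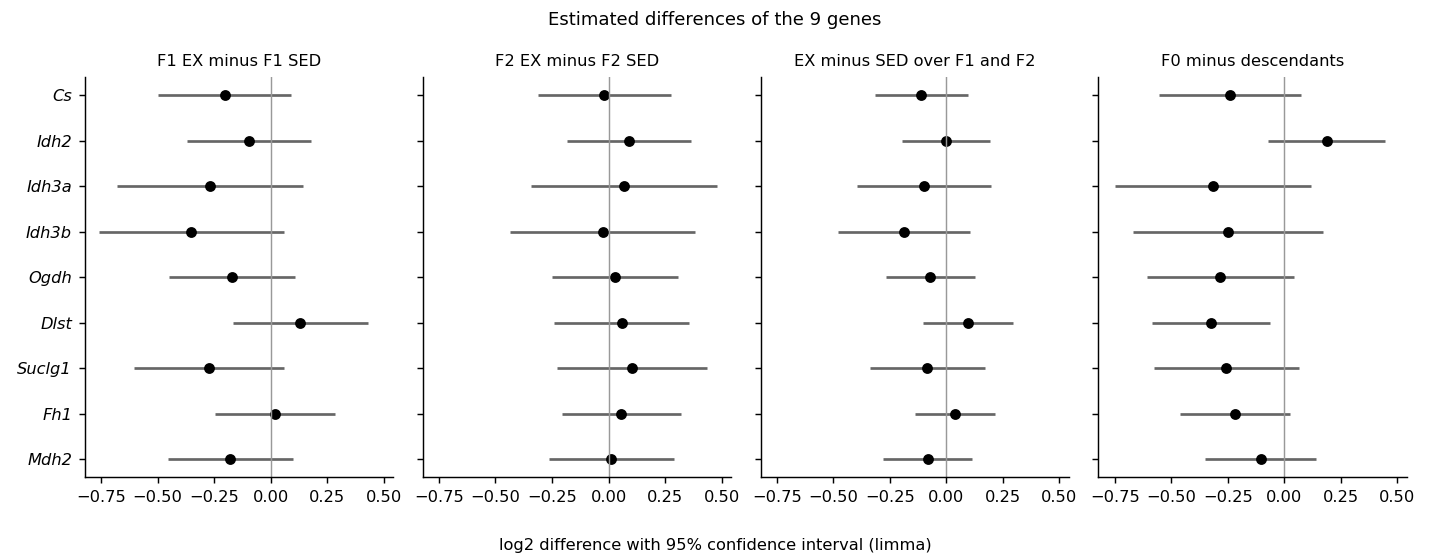
Points give the limma estimate of each gene (rows) on the log2 scale and lines its 95% confidence interval, in 4 comparisons with 2 pools in each descendant group and 1 in each F0 group. Only the Dlst interval for F0 minus descendants lies wholly to one side of 0, and no member passed the adjusted threshold in any of the 4 panels.

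The pair of arrays that stood apart did not hold the members in the same way. F0 SED and F1 EX pool 1 were the lowest pair of the 10 arrays in 6 of 9 members, against 13.7% of all genes and 32.2% of genes in the members' range. With quantile normalization they were the lowest pair in 5 of 9 members, and the share of genes was not counted there. In F1 EX pool 1, Idh3b lay 0.65 under the median of the other 7 descendants, Idh3a 0.64, Suclg1 0.48, Cs 0.32, Ogdh 0.25 and Mdh2 0.18, while Idh2 (-0.019) and Fh1 (-0.0051) were level with them and Dlst was 0.13 above. F0 SED lay 0.59 below the descendants' median in Dlst and 0.45 in Fh1, so these 2 genes were low in 1 of the arrays only. The median gene in the members' range was 0.22 under the descendants' median in F0 SED and 0.032 under it in F1 EX pool 1. Other cycle genes were divided too. Sdhd (-0.54), Dld (-0.47) and Idh3g (-0.25) were low in F1 EX pool 1, Sdha was at -0.037, and Suclg2 and Sdhc were the highest of the 10 arrays there, both by 0.28 over the median of the other descendants. The summed signal of the muscle fibre markers, which was also lowest in these 2 arrays, was given above. Single markers differed from the sum: Mb and Des were highest of the 10 arrays in F0 SED, and Myh2 in F1 EX pool 1. The part of these markers in this pattern was not tested.

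**Figure D4:**
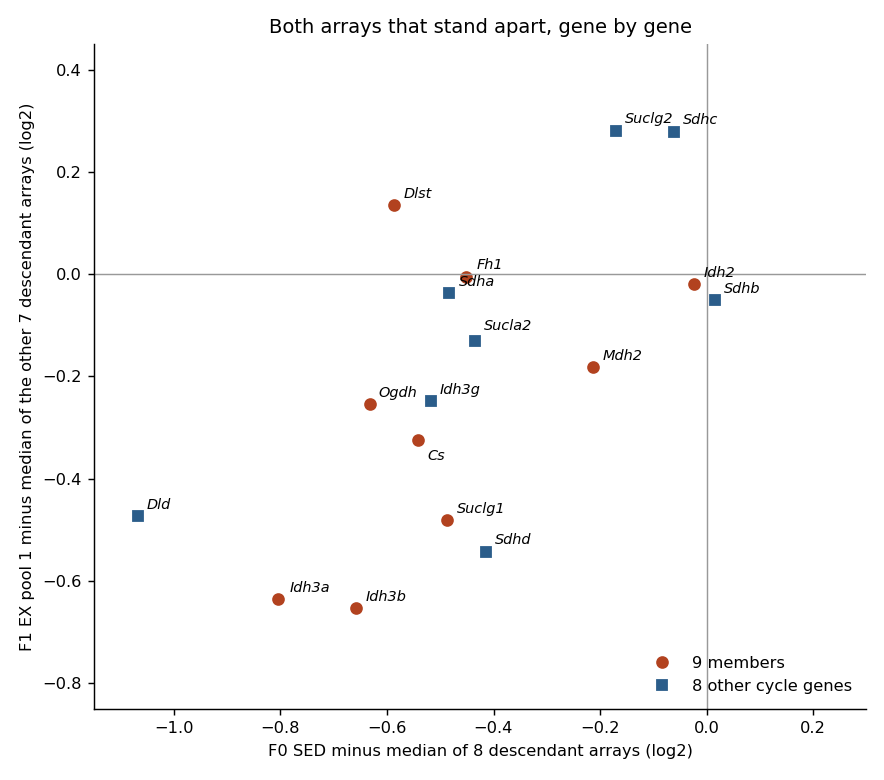
Each point is 1 gene, with its F0 SED signal minus the median of the 8 descendant arrays on the horizontal axis and its F1 EX pool 1 signal minus the median of the other 7 on the vertical axis, both on the log2 scale. Circles are the 9 members and squares 8 other cycle genes. Idh3a and Idh3b lie low on both axes, whereas Dlst and Fh1 are low on the horizontal axis alone and Idh2 is near 0 on both.

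The members varied together over the arrays to unequal degrees. All 36 pairs had a Pearson r above 0 over the 10 arrays, with a median of 0.75, and Idh3a with Idh3b was the highest at 0.97. Dlst and Fh1 went together (r 0.96), and Idh2 was the loosest, with r of 0.22 against the mean of the other 8. Within the 8 descendant arrays the median was 0.36 and 28 of 36 pairs were above 0, and Dlst ran against the mean of the others (-0.35). Without F0 SED and F1 EX pool 1, the median over pairs was 0.35, Idh3a with Idh3b had 0.36, and Idh3a with Fh1 was highest at 0.97. Signals in 1 array share its RNA, labelling and scan, so these values describe the arrays. The genes outside the list with the pattern most like the mean of the 9 members over 10 arrays were Wdr26 (r 0.99), Vdac1, Mrpl23, Kpna1 and Idh3g (0.98 for the last). Their F0 differences were 0.63 (Wdr26), 0.99 (Vdac1), 0.99 (Mrpl23), 1.24 (Kpna1) and 0.58 (Idh3g). Vdac1, a channel of the outer mitochondrial membrane, was 11.07 in F0 EX, 10.08 in F0 SED, 10.59 in F1 EX pool 1 and 11.003 to 11.13 in the other 7 arrays. Over the 8 descendant arrays the genes of most like pattern were Plpp1, Hadhb, Mrps27, Arnt and Strn3 (r 0.98 each). Hadhb makes a subunit of the mitochondrial trifunctional protein of fat oxidation and was 9.40 in F1 EX pool 1 and 9.71 to 9.96 in the other 7. Vdac1 and Hadhb were picked from these lists after values were seen, and the mitochondrial genes on the lists were not counted. Without both arrays that stood apart, Enah, Atic, Elp3, Tle4 and Atp6v0d1 came first (0.94 to 0.97), none of them on the earlier lists.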

How the data were processed

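Gastrocnemius RNA was pooled from 5 males per array and hybridised to 10 Affymetrix arrays as biotin-labelled sense-strand cDNA, per the labels' protocols. The authors deposited log2 probe set signals (0.966 to 14.2 over 35557 probe sets), and the log2 scale was read from that range. Affymetrix Expression Console is the tool named in the submitters' processing notes, and its version, normalization and genome build were not given in the sources used. Signals were used as deposited. Of the probe sets, 21789 had 1 symbol in the platform annotation of GEO (possibly outdated), 1621 had several and 12147 had none. The probe set with the highest mean stood for a gene, and genes whose mean reached the 40th percentile (3.23) were kept.

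Tests used limma 3.58.1 in R 4.3.3 (lmFit, eBayes), with Benjamini-Hochberg adjustment over 11963 genes and a threshold of 0.05, as cell means of the 4 descendant groups (8 arrays) or additive models of generation and ancestry. The fits were also run on simulated data with independent noise of the same spread in every array. No simulated array stood apart, so that run does not bear on the arrays that did. For F0 EX against F0 SED a size of 0.5 was counted. The members, gene lists and tests were chosen with earlier results of these data known. Named genes were the members, up to 3 genes of a list with the largest difference, fixed cycle genes and regulators, and the 5 genes of most like pattern. The genes most like the members without both arrays that stood apart, and the array values of Suclg2, Hadhb and Vdac1, were chosen after values were seen. The labels do not say that pools of a group hold different animals, so p-values measure only the spread between pools, which may be technical. Pool numbers did not pair samples (correlation of deviations 0.016 in F1 and 0.064 in F2). Alternatives covered scaling, filter, probe sets, prior, array weights, blocks and left-out pools.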

Additional observations from a re-analysis of the deposited data

Results flagged for a closer look

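Single arrays lay far from the others of their set for 4 members, by Dixon's ratio of the gap to the nearest array over the whole range. In the 8 descendant arrays, F1 EX pool 1 was the low array for Idh3a (0.742), Idh3b (0.758), Ogdh (0.715) and Suclg1 (0.666). Among the 4 EX descendant arrays it was low for Idh3a (0.881) and Idh3b (0.862). Among the 4 SED descendant arrays F1 SED pool 1 was the high one for Ogdh (0.831). Chance alone would mark about 1 in 20 such sets if they were independent. These sets were not, since F1 EX pool 1 stood apart over all genes and the members varied together. The share of all genes so marked was not counted.

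In 4 members the F0 and the F1 pools moved in opposite directions, in that the F0 EX pool was above the F0 SED pool and every F1 EX pool was below every F1 SED pool. The F1 difference minus the F0 difference was -0.75 for Cs, -0.83 for Ogdh, -0.67 for Suclg1 and -0.39 for Mdh2. These differences were not tested, since F0 had 1 pool a group. Over all genes, 16.6% had both F1 SED pools above both F1 EX pools. The share that also had F0 EX above F0 SED was not counted. In all 4 members the lowest pair of arrays was F0 SED and F1 EX pool 1, the arrays that stood apart over all genes. The F0 difference of Mdh2 turned to -0.098 with quantile normalization.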

How the results depend on the processing

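The number of arrays limits the precision, with 2 pools in each descendant group and 1 in each F0 group. No member passed the threshold in any comparison under the scalings, filters, probe set rule, variance prior, array weights and replicate block, so the alternatives bear on direction and size. Where a cause is not named, the cause was not tested. Whether equal pool numbers pair the samples could not be settled. With the replicate block the members' medians were as before (-0.18 in F1, 0.056 in F2), 0 genes passed, and it changed no call. Centring on the genes tested and leaving out both arrays that stood apart were chosen after seeing the data.

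For F0 EX minus F0 SED, 2932 genes were higher by 0.5 with each array centred on its median over all probe sets (8 members, median 0.64) and 1197 when centred on the genes tested (median 0.37). With quantile normalization 1 member was, the median was 0.25, and Mdh2 was at -0.098. Without a filter the median of all genes was -0.032.

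Centring on all probe sets turned Fh1 in F1 (-0.012), Cs (0.041) and Idh3b (0.035) in F2, Dlst in the F2 minus F1 effect (0.019) and Idh2 over both generations (0.013), and the median of the F2 minus F1 effect was 0.28. Quantile normalization turned Mdh2 in F2 (-0.051), Fh1 in the F2 minus F1 effect (-0.053, median 0.11), Idh2 over both generations (0.012), Dlst in F2 minus F1 (-0.013) and Mdh2 in F0 minus descendants (0.035, median -0.14). Centring on the genes tested turned Ogdh (-0.021) and Mdh2 (-0.039) in F2 and Fh1 in the F2 minus F1 effect (-0.030). Array weights turned Idh3a (0.018) and Suclg1 (0.0091) over both generations, and gave 1 called gene in F2 minus F1 and 38 in F0 minus descendants. A trended, robust prior gave 2 in F2 minus F1. With the F0 pair added, the ancestry median was 0.074, with Cs 0.020, Idh2 0.082, Idh3a 0.082, Ogdh 0.074 and Suclg1 0.012. Without F0 SED and F1 EX pool 1, F0 minus descendants had 170 called genes and a median of 0.0050, with Cs 0.027, Idh3b 0.029, Ogdh 0.016 and Mdh2 0.0050.

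Leaving out single pools gave these ranges. In F1 the median ran from -0.28 to -0.060, genes called from 0 to 1046, members called from 0 to 2, Idh3a from -0.57 to 0.035 and Fh1 from -0.028 to 0.067. In F2, Cs ran from -0.078 to 0.040, Idh3b from -0.064 to 0.014, Dlst from -0.037 to 0.16 and Mdh2 from -0.0235 to 0.048. For the F2 minus F1 effect the median ran from 0.075 to 0.30, genes called from 0 to 143, Dlst from -0.17 to 0.023 and Fh1 from -0.011 to 0.084. Over both generations Idh2 ran from -0.041 to 0.050, Idh3a from -0.19 to 0.056 and Suclg1 from -0.14 to 0.031. For F2 minus F1, Ogdh ran from -0.0033 to 0.094 and Dlst from -0.030 to 0.057. For F0 minus descendants the median ran from -0.52 to 0.081, genes called from 86 to 1231 and members called from 0 to 4. Cs ran from -0.57 to 0.0895, Idh2 from -0.021 to 0.40, Idh3a from -0.77 to 0.14, Idh3b from -0.68 to 0.18, Ogdh from -0.65 to 0.081 and Mdh2 from -0.25 to 0.044. Dlst (-0.52 to -0.13), Suclg1 (-0.50 to -0.015) and Fh1 (-0.42 to -0.017) stayed below 0 throughout.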
